A study of Homo sapiens with 6 samples.

Results

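Cadherins are calcium-dependent adhesion receptors that hold neighbouring cells together, and catenins are the cytoplasmic proteins that tie the cadherin tail to the actin cytoskeleton. In breast epithelium the main cadherins are E-cadherin (CDH1) and P-cadherin (CDH3), whereas cells with a mesenchymal phenotype often carry N-cadherin (CDH2) or cadherin 11 (CDH11) in their place, a change known as the cadherin switch. The genes described here are 7 cadherins (CDH1, CDH2, CDH3, CDH4, CDH6, CDH11 and CDH13) and the catenin genes CTNNA1, CTNND1 and JUP, chosen by name. Of the 10 genes, 9 had a row in the deposited table of 74852 genes, and 8 of these had enough reads to be tested. No row carried the symbol JUP.

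MDA-MB-231 is a mesenchymal, triple-negative breast cancer (TNBC) line of human origin. It was transfected 2 times with a pool of non-targeting siRNAs (si-CTRL) or a pool of siRNAs against the mitotic kinase NEK2 (si-NEK2). The sample records place the harvest 24 h after the last transfection. The paper's methods give a longer interval and do not say from which transfection it runs. PolyA-enriched RNA of 3 samples per group was sequenced, with between 52625492 and 87454509 reads assigned to genes per library. Values are normalized counts, that is the reads of a gene after division by its library's DESeq2 size factor. With 1 siRNA pool per group, loss of NEK2 and other effects of the pools cannot be told apart. The records do not say whether the samples of a group were separate cultures, so that p-values measure the spread between these samples, which may be technical.

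NEK2 itself fell from 3438 ± 229 (SD, n = 3) to 344.9 ± 54.4 (SD, n = 3) normalized counts. Of the markers of the line, VIM had 157264 ± 14370 normalized counts in si-CTRL and 138731 ± 4069 in si-NEK2 (SD, n = 3). All si-NEK2 libraries of VIM lay below all si-CTRL libraries, as for 26.9% of all genes tested. VIM did not pass (log2 fold change -0.18, adjusted p = 0.101 from limma), nor did AXL (-0.20). CD44 fell from 54108 ± 12921 to 31464 ± 2103 (SD, n = 3, log2 fold change -0.76). EPCAM did not exceed 12.7, ESRP1 3.80, PGR 1.64 and ESR1 15.2. ERBB2 was not near 0, with 2822 ± 544 in si-CTRL and 4020 ± 80.8 in si-NEK2 (SD, n = 3). Among the 5 epithelial markers examined, EPCAM and ESRP1 were near 0 in both groups, CLDN4 was lower in si-NEK2 cells (log2 fold change -0.74) and KRT8 (0.37) and the row labelled KRT19 (0.55) were higher but by less than 1.5-fold; their part in the results below was not tested. The leukocyte markers PTPRC and CD3E did not exceed 25.4 normalized counts, and the endothelial markers PECAM1, CDH5 and VWF did not exceed 42.5.

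Regulated genes were those that reached 1.5-fold with a p-value no higher than 0.05, by limma on log2(normalized count + 1). These RNA samples are of bulk cells, so that fewer cells with a transcript and less of it per cell cannot be told apart. CDH2, CDH6 and the row of CTNND1 rose, CDH11 fell, and CDH3, CDH4, CDH13 and CTNNA1 did not pass both thresholds. Of the 8 tested genes, 3 were thus higher, where 8.23% of the 18717 genes tested were regulated upward, and 1 was lower, where 14.3% were regulated downward. In either direction this was 4 of 8, against 22.5% of all genes tested. The 4 regulated genes were also those with an adjusted p under 0.05 (limma, Benjamini-Hochberg), which 43.1% of all genes tested reached. The median log2 fold change was 0.15 over the 8 genes and 0.012 over all genes tested. All si-NEK2 libraries lay above all si-CTRL libraries for 5 of the 8 genes (28.2% of all genes tested) and below them for 1 (26.9%), which makes 6 of 8 where 55% of all genes tested did not overlap. The split over all genes moved with scaling, from 1541 higher and 2672 lower to 941 higher and 3479 lower with equal total scaling and 1829 higher and 2138 lower with quantile scaling.

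**Figure D1:**
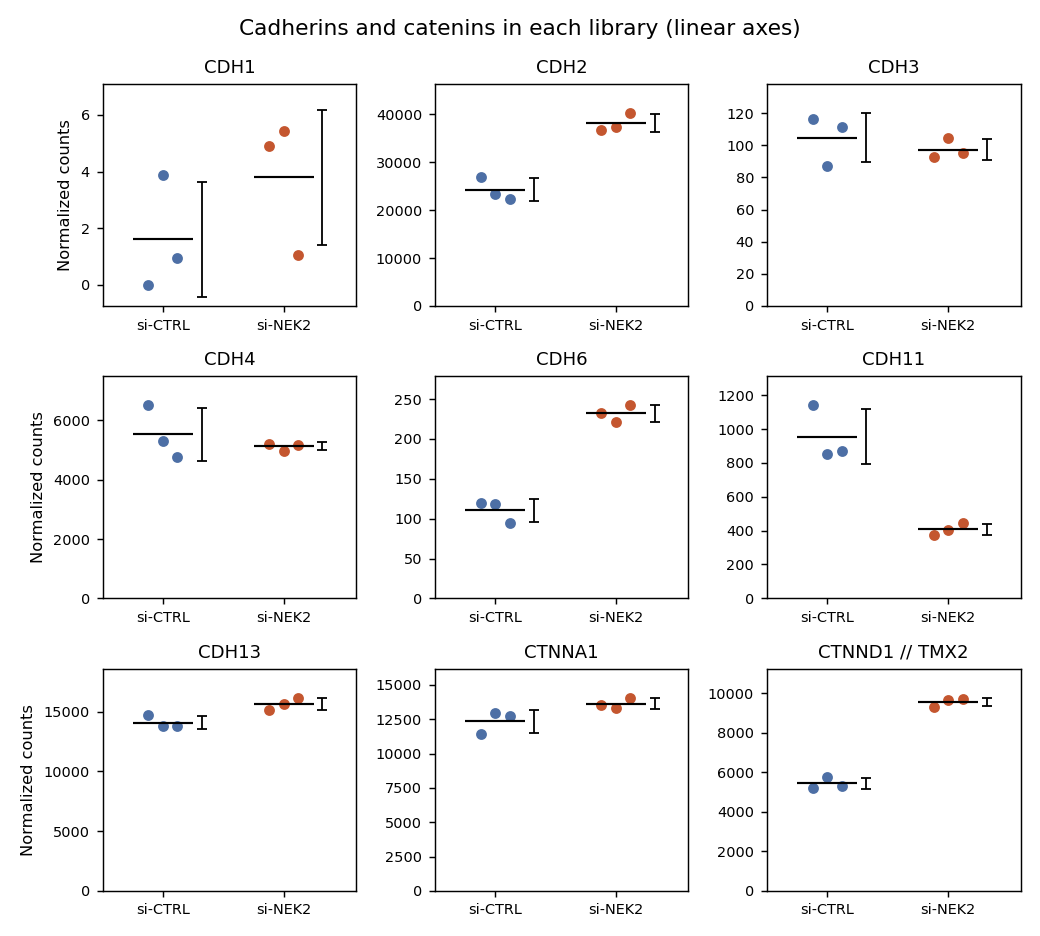
Normalized counts of the 9 genes with a row, 1 panel per gene with its own linear axis; each point is a library, the bar is the mean of the group and the whisker the SD (n = 3). The si-NEK2 libraries of CDH2, CDH6 and the row shared by CTNND1 and TMX2 lie above all si-CTRL libraries and those of CDH11 lie below, whereas CDH1 stays under 6 normalized counts in every library.

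CDH1 encodes E-cadherin, the defining adhesion receptor of epithelial cells. Its row (GSHG0011307, chromosome 16 from 68771193 to 68869445, hg19) held 0, 4 and 1 reads in si-CTRL replicates 1 to 3 and 6, 6 and 1 reads in si-NEK2 replicates 1 to 3. These correspond to 0, 3.87 and 0.951 normalized counts in si-CTRL and 4.91, 5.42 and 1.07 in si-NEK2. The groups overlapped, and CDH1 was at or near the limit of detection in both, since a count of 0 allows up to 3 reads. It lay under the minimum mean of 10 normalized counts for testing. When every gene with a read was tested, its log2 fold change of 1.01 had an adjusted p of 0.364 (limma), so that a change of CDH1 was not detectable at this depth.

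CDH3, which encodes P-cadherin of basal and myoepithelial cells, was low as well. It had 116, 87.2 and 111 normalized counts in si-CTRL replicates 1 to 3 and 92.5, 105 and 94.96 in si-NEK2 replicates 1 to 3. The libraries of both groups were interleaved. The log2 fold change was -0.10 (95% interval -0.47 to 0.28, adjusted p = 0.669 from limma), and it changed sign to 0.12 with quantile scaling.

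CDH2 encodes N-cadherin, a cadherin of neural and mesenchymal cells, and was the most abundant of the cadherins. Its row (GSHG0014238, chromosome 18 from 25530927 to 25757410, hg19) had 26951, 23469 and 22320 normalized counts in si-CTRL replicates 1 to 3. In si-NEK2 replicates 1 to 3 it had 36782, 37390 and 40385. Every si-NEK2 library exceeded the highest si-CTRL library, which was replicate 1. The mean rose from 24247 ± 2412 to 38186 ± 1929 (SD, n = 3), a log2 fold change of 0.66 (95% interval 0.47 to 0.85, standard error 0.082) or 1.58-fold (adjusted p = 0.000346, limma). This lay close to the fold threshold, and the log2 fold change was 0.53 with equal total and 0.52 with quantile scaling, below the threshold in both, with adjusted p-values of 0.00108 and 0.00145 (limma).

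CDH4 encodes R-cadherin, a close relative of N-cadherin first described in the retina. It had 6513, 5295 and 4770 normalized counts in si-CTRL replicates 1 to 3, which span the 5217, 4972 and 5177 of si-NEK2 replicates 1 to 3. The si-CTRL libraries were more spread (SD 894) than the si-NEK2 libraries (SD 131). The log2 fold change of -0.10 (95% interval -0.34 to 0.15, adjusted p = 0.497 from limma) was within the spread between libraries and became 0.027 without si-CTRL replicate 1.

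Sequence around a RefSeq start of CDH2 and of CDH4 is shown as a description. Factors of the SNAI and ZEB families, described further on, bind the E-box hexamers CACCTG and CAGGTG (the same site on opposite strands). RefSeq windows from 250 bases before to 50 bases after a start (GRCh38.p14) were at hand for 4 of the 10 genes, in 10 windows: CDH2, CDH4, CTNNA1 and JUP, with no entry for CDH1, CDH3, CDH6, CDH11, CDH13 and CTNND1. CDH2 and CDH4 have 2 windows each, of which the more upstream is shown. Whether each shown window lies at the first start of its gene or at a later start within it was not checked, so that the 2 may not be alike. The CDH2 window is chr18:28177081-28177380 on the minus strand and the CDH4 window is chr20:61499171-61499470 on the plus strand, each written 5′ to 3′ along the gene, with the 2 hexamers in capitals.
CDH2: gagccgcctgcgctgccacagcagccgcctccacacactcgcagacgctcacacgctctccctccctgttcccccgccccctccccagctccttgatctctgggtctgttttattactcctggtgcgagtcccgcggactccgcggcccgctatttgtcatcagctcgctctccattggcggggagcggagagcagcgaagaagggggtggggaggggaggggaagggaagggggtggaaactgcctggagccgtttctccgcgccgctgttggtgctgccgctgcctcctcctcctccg
CDH4: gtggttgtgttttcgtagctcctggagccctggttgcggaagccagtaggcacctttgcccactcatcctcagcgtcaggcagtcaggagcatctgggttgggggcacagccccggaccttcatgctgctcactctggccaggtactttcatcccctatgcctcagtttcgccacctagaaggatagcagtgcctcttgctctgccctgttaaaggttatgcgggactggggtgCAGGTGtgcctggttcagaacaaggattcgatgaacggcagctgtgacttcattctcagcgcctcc

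The window shown for CDH4 held 1 match, which begins at position -16 from the start, and its other window held none. Neither window of CDH2 held one. Of the 10 windows of these genes 2 held a match, the other being a window of JUP, and 20.6% of all 35116 RefSeq windows of this length did. A match is a string of letters and not a shown binding site, and its part in the change of any gene was not tested.

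CDH6 encodes K-cadherin, a type II cadherin known from the kidney. Its row (GSHG0023855, chromosome 5 from 31193762 to 31329253, hg19) had 120, 118 and 94.1 normalized counts in si-CTRL replicates 1 to 3 and 232, 221 and 242 in si-NEK2 replicates 1 to 3. All si-NEK2 libraries were above all si-CTRL libraries. The mean rose from 110.8 ± 14.4 to 232 ± 10.4 (SD, n = 3), a log2 fold change of 1.07 (standard error 0.14, 95% interval 0.75 to 1.39) or 2.10-fold (adjusted p = 0.00045, limma). It rested on few reads, 317 over the si-CTRL libraries and 756 over the si-NEK2 libraries, and its log2 fold change lay between 0.94 and 1.25 under all 18 alternatives.

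CDH11 encodes cadherin 11, a type II cadherin of osteoblasts and mesenchymal cells, and was the 1 regulated gene of the group that fell. Its row (GSHG0011888, chromosome 16 from 64977659 to 65156040, hg19) had 1141, 850 and 873 normalized counts in si-CTRL replicates 1 to 3 and 373, 404 and 443 in si-NEK2 replicates 1 to 3. The si-NEK2 libraries were all below the lowest si-CTRL library. The mean fell from 955 ± 162 to 406.6 ± 34.9 (SD, n = 3), so that 42.9% remained (log2 fold change -1.22, standard error 0.13, 95% interval -1.52 to -0.92, adjusted p = 0.000163 from limma). CDH6 and CDH11 are both type II cadherins and thus changed in opposite directions.

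CDH13 encodes T-cadherin, which has no cytoplasmic tail and is held in the membrane by a lipid anchor. It had 14724, 13763 and 13794 normalized counts in si-CTRL replicates 1 to 3 and 15111, 15640 and 16179 in si-NEK2 replicates 1 to 3. The groups did not overlap, by a margin of 14724 to 15111. The log2 fold change was 0.15 (95% interval 0.011 to 0.29, adjusted p = 0.0779 from limma), that is 1.11-fold, under the fold threshold. A row without a symbol, with a mean of 143 normalized counts, lies within the span of CDH13.

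**Figure D2:**
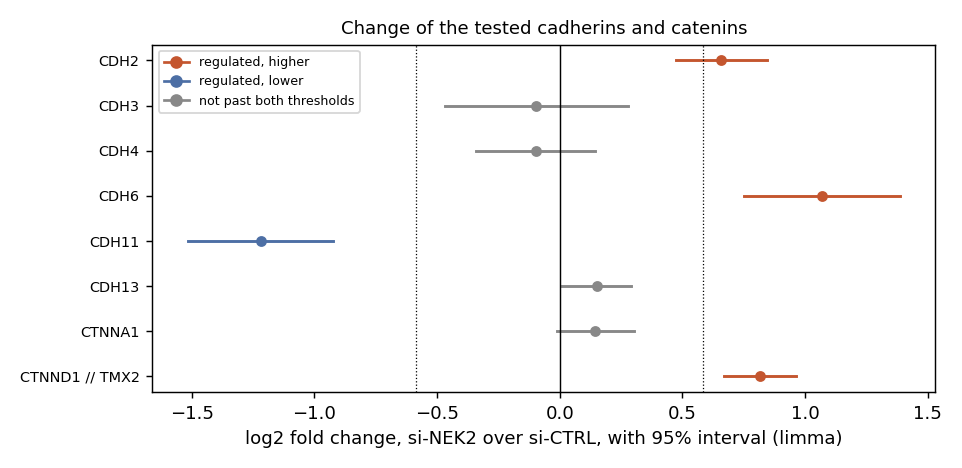
Log2 fold change of si-NEK2 over si-CTRL for the 8 tested genes, with 95% intervals from limma; dotted lines mark a fold change of 1.5 in either direction. CDH2 (0.66), CDH6 (1.07) and the row of CTNND1 (0.81) lie to the right of the upper line and CDH11 (-1.22) to the left of the lower line, while CDH3, CDH4, CDH13 and CTNNA1 lie between the lines.

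Levels were compared between genes only per kb of exon, with exon lengths from GENCODE release 29. In si-CTRL cells CDH2 had 4898 ± 487 normalized counts per kb (SD, n = 3), followed by CTNNA1 with 1400 ± 95.4, CDH13 with 1260 ± 48.8 and CDH4 with 752 ± 122. CDH11 (71.3 ± 12.1), CDH3 (16.8 ± 2.49), CDH6 (8.95 ± 1.17) and CDH1 (0.26 ± 0.33) followed far below. The libraries of CTNNA1 (1290 to 1468 per kb) and CDH13 (1230 to 1316 per kb) overlapped in si-CTRL cells on this length. With the length of the longest transcript they did not, with 2974 to 3382 per kb for CTNNA1 and 1711 to 1831 per kb for CDH13. In si-NEK2 cells CDH6 (18.7 ± 0.84 per kb) stood above CDH3 (15.6 ± 1.05 per kb), with no overlap between their libraries, and the other cadherins kept their order.

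The 7 cadherins were also taken as a pool, in which each gene has a share of the summed level per kb. CDH2 held 70.2%, 69.9% and 69.6% of the pool in si-CTRL replicates 1 to 3 and 77.8%, 77.9% and 78.6% in si-NEK2 replicates 1 to 3. The share of CDH13 was 18.0% ± 1.04 in si-CTRL and 14.2% ± 0.244 in si-NEK2, and that of CDH4 was 10.7% ± 0.704 and 7.06% ± 0.33 (SD, n = 3). A share also falls when another gene of the pool rises. The mean level of CDH13 itself was 1260 per kb in si-CTRL and 1398 in si-NEK2, and that of CDH4 was 752 and 697. Neither gene passed both thresholds. The share of CDH11 went from 1.01% ± 0.081 to 0.307% ± 0.0139 (SD, n = 3). CDH1 made up 0.00388% of the pool in si-CTRL and 0.00635% in si-NEK2. The summed level was 7007 ± 669 per kb in si-CTRL and 9875 ± 441 in si-NEK2 (SD, n = 3). These shares are a description with no test, and they depend on the exon length taken for each gene.

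**Figure D3:**
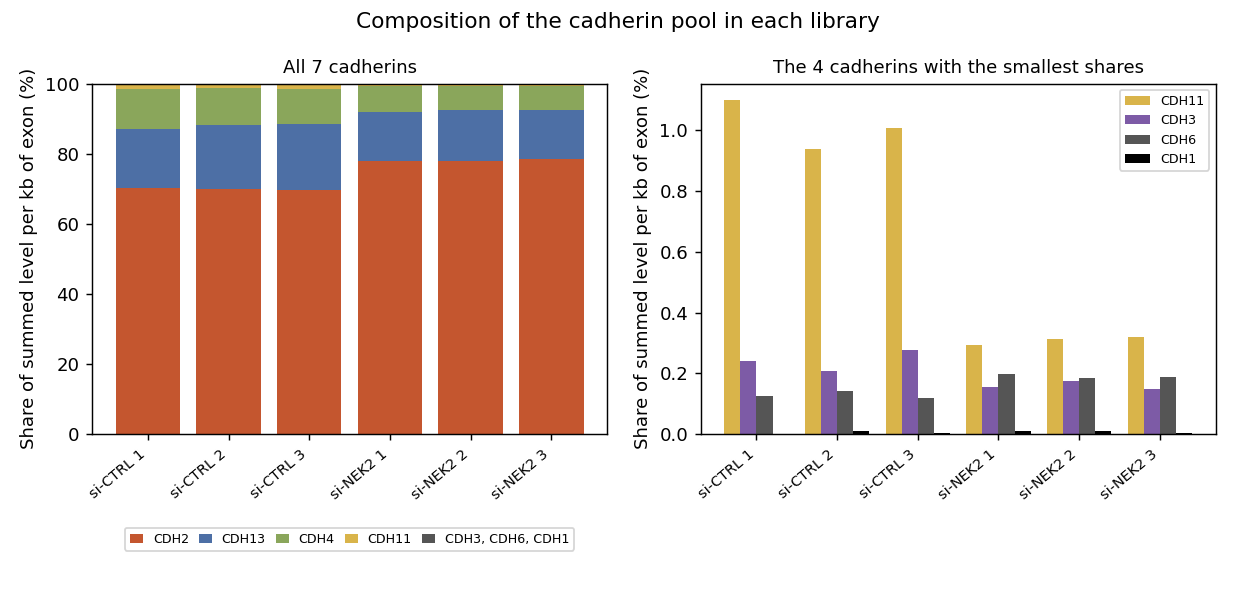
Share of each of the 7 cadherins in their summed level per kb of exon, in percent, for each library; the left panel stacks all of them and the right panel shows the 4 with the smallest shares on a wider scale. CDH2 takes between 69.6% and 70.2% of the pool in the si-CTRL libraries and between 77.8% and 78.6% in the si-NEK2 libraries, and the share of CDH11 is lower in every si-NEK2 library.

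CTNNA1 encodes alpha-E-catenin, which links the cadherin complex to actin filaments. Its row (GSHG0024272, chromosome 5 from 138089075 to 138270723, hg19) had 11395, 12958 and 12720 normalized counts in si-CTRL replicates 1 to 3 and 13521, 13320 and 14076 in si-NEK2 replicates 1 to 3. The groups did not overlap, but the log2 fold change of 0.14 (95% interval -0.012 to 0.30) did not pass (adjusted p = 0.125, limma).

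CTNND1 encodes catenin delta 1, which binds the part of the cadherin tail next to the membrane and keeps cadherins at the cell surface. The table lists it in 1 row with TMX2, a thioredoxin-related membrane protein, and with the readthrough of both (GSHG0004849, chromosome 11 from 57479995 to 57586652, hg19), so that their reads are not parted. The shared row had 5219, 5759 and 5329 normalized counts in si-CTRL replicates 1 to 3 and 9299, 9660 and 9706 in si-NEK2 replicates 1 to 3. Every si-NEK2 library was well above every si-CTRL library. The mean rose from 5436 ± 285 to 9555 ± 223 (SD, n = 3), a log2 fold change of 0.81 (95% interval 0.67 to 0.96, standard error 0.064) or 1.76-fold (adjusted p = 3.74e-05, limma). Which of the 2 genes rose cannot be told apart in these data. A row named C11orf31, with a mean of 1977 normalized counts, and a row without a symbol, with a mean of 33.9, also lie within this span, and the handling of strand in the counting is not stated.

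JUP encodes plakoglobin, a catenin of both adherens junctions and desmosomes. No row carries its symbol, but the row labelled KRT19 (chromosome 17 from 39679870 to 39942964, hg19) spans 263095 bases, whereas KRT19 alone has 4692 bases in RefSeq. The stretch from the first base of KRT19 to the last base of JUP in RefSeq (GRCh38.p14) is 263095 bases as well. The row had 1535, 1415 and 1431 normalized counts in si-CTRL replicates 1 to 3 and 2341, 2077 and 2014 in si-NEK2 replicates 1 to 3. All si-NEK2 libraries were above the si-CTRL libraries, and the log2 fold change was 0.55 (95% interval 0.36 to 0.74, adjusted p = 0.000878 from limma), under 1.5-fold. Whether reads of JUP are counted in this row was not tested, and no value is given for JUP itself.

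Within the si-CTRL group, replicate 1 was the highest library for all 6 tested cadherins and the lowest for CTNNA1 and the row of CTNND1. For CDH6 the lead was small, with 120 normalized counts against 118 in replicate 2. The same library was the highest of si-CTRL for VIM, CD44, ZEB1, ZEB2 and SNAI2 and the lowest for CTNNB1, DSG2 and CDH12. The pattern was thus not particular to these genes, and its share over all genes was not counted. Replicate 1 was also the library with the fewest assigned reads. Without it, the log2 fold changes were 0.74 for CDH2, 1.13 for CDH6, -1.08 for CDH11 and 0.79 for the row of CTNND1, each still past both thresholds.

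Across the 6 libraries, the tested genes with a symbol and a mean of at least 50 whose log2 values went most closely with CDH11 included STK38L (Pearson r of 0.999). FAXDC2 (r of 1.00) and GFRA1 (0.999) went most closely with CDH6, and ZBED6CL and GPRC5A (0.999 for both) with the row of CTNND1. Each r is over 6 libraries that fall into 2 groups and is given as a description.

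The other genes of cell junctions were taken from 7 lists with 69 genes in all, of which 52 were tested. Of these, 16 were higher in si-NEK2 cells, where 8.23% of all genes tested were, and 7 were lower, where 14.3% were. The median log2 fold change was 0.062, beside 0.012 for all genes tested. Among the other classical and type II cadherins, 6 of 12 were tested, 2 were higher and 2 were lower. CDH10, a type II cadherin of brain, rose from 715.7 ± 54.2 to 1349 ± 37.2 normalized counts (SD, n = 3; log2 fold change 0.92, adjusted p = 7.81e-05 from limma), and CDH12 rose from 31.5 to 69.4 (1.13). CDH5, the cadherin of endothelium, fell from 30.5 to 13.7 (-1.06), and CDH15, the cadherin of muscle, fell from 32.5 to 13.9 (-1.23). CDH12, CDH5 and CDH15 had few reads, at most 223 over the libraries of a group. Without si-CTRL replicate 1, CDH5 had a log2 fold change of -0.80, still past both thresholds, but with an adjusted p of 0.0891 (limma).

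Of the other genes of the catenin families, 6 of 10 were tested, 3 were higher (8.23% of all genes tested) and none was lower (14.3%). CTNNB1 encodes beta-catenin, which binds the cadherin tail and is also the effector of Wnt signalling. It had 17510, 21046 and 20957 normalized counts in si-CTRL replicates 1 to 3 and 30063, 31457 and 31751 in si-NEK2 replicates 1 to 3. The groups did not overlap, and the log2 fold change was 0.65 (95% interval 0.47 to 0.84, adjusted p = 0.000354 from limma). It was 0.57 without si-CTRL replicate 1, 0.52 with equal total and 0.52 with quantile scaling, under 1.5-fold in each. Plakophilins are desmosomal relatives of catenin delta 1, and PKP2 rose from 611 ± 86.9 to 1536 ± 15 (SD, n = 3; log2 fold change 1.34) and PKP3 from 1367 ± 96.4 to 2357 ± 183 (0.78).

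Of the desmosomal cadherins and desmoplakin, 3 of 8 were tested and 2 were higher (8.23% of all genes tested). DSG2, the desmoglein found in most desmosomes, rose from 13795 ± 1005 to 26816 ± 705 normalized counts (SD, n = 3; log2 fold change 0.96, adjusted p = 2.61e-05 from limma). DSP, the desmoplakin that ties desmosomes to intermediate filaments, rose from 986 ± 73.1 to 1743 ± 114 (0.82). DSC2 did not pass (-0.29, adjusted p = 0.139 from limma), and DSG1, DSG3, DSG4, DSC1 and DSC3 were under the minimum mean.

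Of the nectins and actin adaptors all 12 were tested, 2 were higher (8.23% of all genes tested) and 1 was lower (14.3%). In either direction this was 3 of 12, near the 22.5% of all genes tested. Nectins are immunoglobulin-like adhesion receptors that join cadherins in adherens junctions. NECTIN3 (log2 fold change 0.67) and NECTIN4 (0.69) rose, under 1.5-fold with equal total scaling (0.54 and 0.56). NECTIN1 fell by 0.59 on the log2 scale, and was at -0.57 without si-CTRL replicate 3 and -0.56 without si-NEK2 replicate 2, no longer past the fold threshold.

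Of 6 genes of cadherin processing and turnover, all were tested, 2 were higher (8.23% of all genes tested) and none was lower (14.3%). ADAM10, a protease that cleaves cadherins at the cell surface, rose from 6315 ± 149 to 9588 ± 361 normalized counts (SD, n = 3; log2 fold change 0.60, adjusted p = 0.000124 from limma). It was at the edge of the fold threshold, and leaving out si-CTRL replicate 1 or si-NEK2 replicate 3 put it at 0.58, under the threshold. ADAM10 was also under it when scaled by equal total (0.47), by quantiles (0.50) or by the upper quartile (0.54). No gene of this list was higher when si-NEK2 replicate 3 was left out, and 1 was when si-NEK2 replicate 2 or any single si-CTRL replicate was. None was higher with upper quartile, equal total or quantile scaling, and 1 was with TMM scaling, edgeR or DESeq2.

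Of 6 factors known to repress CDH1, 3 were lower, against 14.3% of all genes tested, and none was higher, against 8.23%. ZEB2 fell from 2410 ± 587 to 785 ± 128 normalized counts (SD, n = 3; log2 fold change -1.60, adjusted p = 0.000173 from limma), ZEB1 from 5146 ± 762 to 2900 ± 69.9 (-0.82) and SNAI2 from 1234 ± 320 to 739 ± 29.8 (-0.71). SNAI2 was at -0.51 without si-CTRL replicate 1, under 1.5-fold. SNAI1, TWIST1 and TCF3 had log2 fold changes of -0.0059, -0.12 and -0.13 and did not pass. CDH1 stayed at or under 6 reads in each library of both groups.

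Of 15 protocadherins and large cadherins, 13 were tested, 5 were higher (8.23% of all genes tested) and 1 was lower (14.3%). PCDH18 rose from 151 ± 17.9 to 389 ± 11.1 normalized counts (SD, n = 3; log2 fold change 1.37), FAT3 from 537 ± 167 to 1147 ± 111 (1.14) and PCDH10 from 604 ± 39.2 to 1177 ± 114 (0.96), whereas DCHS1 fell from 95.9 ± 9.72 to 44.4 ± 0.335 (-1.09). The number of higher genes was 3 without si-CTRL replicate 3 and 3 without si-NEK2 replicate 3.

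**Figure D4:**
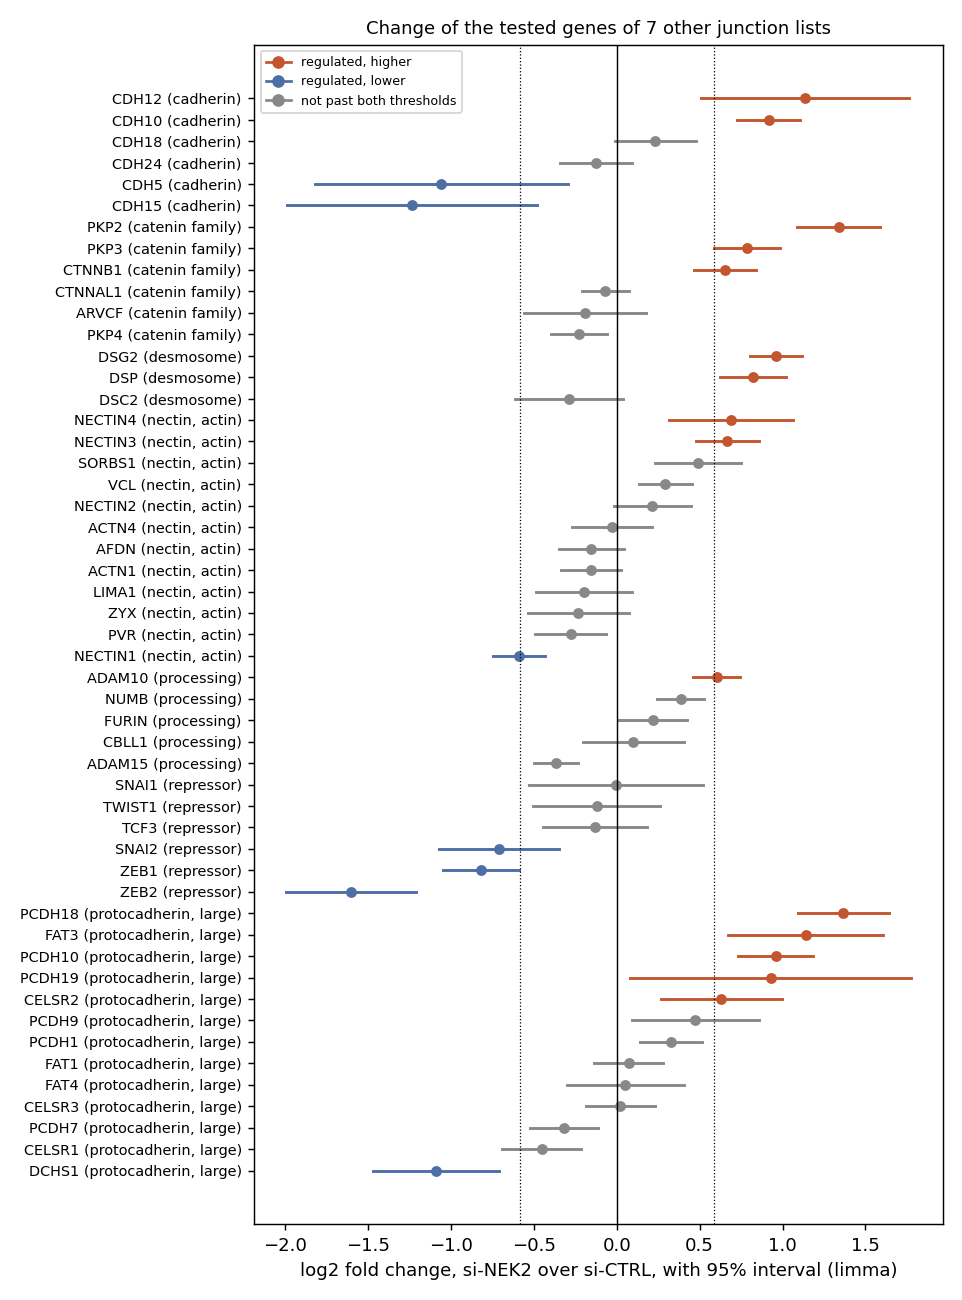
Log2 fold change of si-NEK2 over si-CTRL for the tested genes of the 7 other junction lists, 1 of which is not drawn, with 95% intervals from limma and dotted lines at a fold change of 1.5; the list of each gene is in parentheses. The 16 higher genes include PKP2 (1.34), PCDH18 (1.37) and DSG2 (0.96), and the 7 lower genes include ZEB2 (-1.60), CDH15 (-1.23) and DCHS1 (-1.09).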

How the data were processed

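The authors deposited 1 normalized signal per gene and library, that is reads assigned to FAST DB genes (hg19) divided by the DESeq2 size factor, with replicates not pooled; the submitters' processing notes name STAR 2.4.0, SAMtools, Picard and FastQC, and the counter and its handling of strand are not given in the sources used here. The signal was a whole multiple of 1 read, within 0.01, in 100% of values above 0, which gave back the reads; 1 read was worth between 0.818 and 1.25 normalized counts. Libraries were grouped by sample title. The 18717 genes whose mean reached 10 normalized counts were fitted with limma 3.58.1 in R 4.3.3 (lmFit, eBayes with trend) on log2(value + 1), with Benjamini-Hochberg adjustment over all genes tested; fold changes on this scale are understated for genes with few reads. The genes and lists were chosen by name, with earlier results of these data known. All 10 genes, the regulated genes of each other list (the 4 with the largest change where there were more) and the closest profiles of the 3 genes with the largest change are named. Results were recomputed with pseudocounts of 0.1 or 5, without the filter or with a minimum mean of 50, with TMM, quantile, equal total or upper quartile scaling, without the eBayes trend, with a replicate block, without each library in turn, with edgeR 4.0.16 or DESeq2 1.42.0 on recovered reads, and with calls by adjusted p or at 2-fold. The tests were checked on simulated data with changes of at least 2-fold and the same dispersion of reads for all genes. That check did not cover calls near 1.5-fold. Counting intervals and the floor of 3 reads cover counting error only. Some genes of the lists are not reported here.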

Additional observations from a re-analysis of the deposited data

How the results depend on the processing

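CDH6, CDH11, the row of CTNND1 and NEK2 kept their direction and their side of both thresholds under all 18 alternatives. CDH2 kept its direction, with a log2 fold change between 0.52 and 0.74, and was under 1.5-fold with equal total (0.53) and quantile scaling (0.52). Signs changed for CDH3 with quantile scaling (0.12) and for CDH4 without si-CTRL replicate 1 (0.027), in a range of -0.20 to 0.027 over the single libraries left out; neither gene passed in any fit. With a fold change of at least 2, which removes genes by construction, 1 gene of the group was higher, and 1637 of all genes tested were regulated (403 higher and 1234 lower), with 4 higher and 4 lower in the other junction lists. Equal total scaling, which moved the median of all genes to -0.12, gave 941 higher genes, with 9 in the other lists. Taking the longest transcript as the length put the share of CDH2 at 66.8% and 75.6%, of CDH13 at 21.0% and 16.7%, of CDH11 at 1.65% and 0.507% and of CDH6 at 0.156% and 0.235% in si-CTRL and si-NEK2, with all 9 genes at the same rank. Replicate numbers did not pair the samples (r of deviations -0.091, 0.047 and -0.15 for same-numbered libraries), and the replicate block left 4084 regulated genes and changed no call of the group. The depth limits CDH1, which a few reads per library cannot resolve.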
